A study of Homo sapiens with 4 samples.

Results

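The genes described here are the Aurora and Polo mitotic kinases with their cofactors, and the pair of ubiquitin ligases that act on the MYCN protein. They were taken by symbol as 10 genes of the 64252 in the count table. *AURKA* and its activator *TPX2*, the chromosomal passenger complex (*AURKB*, *INCENP*, *BIRC5* and *CDCA8*), *PLK1* and its cofactor *BORA*, and the ligase genes *FBXW7* and *HUWE1* were each matched to a single Ensembl identifier, and all 10 passed the filter on low counts. The libraries are RNA-seq of SK-N-BE(2), a human neuroblastoma cell line with amplified MYCN, that carried either a scrambled shRNA (sh-Scb) or an shRNA against *SAPCD2* (sh-SAPCD2), with 2 libraries per group. For its shRNA cells in general, the paper describes infection with lentivirus and selection with puromycin as stable populations. It does not state this for the RNA-seq libraries themselves. The labels do not give which of the study's shRNAs against *SAPCD2* the knockdown libraries carry. All libraries come from a single cell line, and nothing states that the 2 libraries of a group came from separate cultures, so p-values measure only the spread between these libraries. The comparison asks which transcripts depend on SAPCD2, a protein known for its part in spindle orientation.

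Aurora and Polo kinases drive entry into and passage through mitosis. BORA, in complex with Aurora A, lets Aurora A activate PLK1, and TPX2 carries Aurora A to spindle microtubules and holds it in its active form. Aurora B works in the chromosomal passenger complex, in which INCENP is the scaffold, and survivin (*BIRC5*) and borealin (*CDCA8*) bring the complex to centromeres. In neuroblastoma these kinases are known for a further role, because Aurora A binds the MYCN protein and hinders its ubiquitination by FBXW7, the substrate receptor of an SCF ligase, while HUWE1 is a HECT ligase that also ubiquitinates MYCN.

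The libraries held 25347900 to 31850997 counts. The detection floor of 3 counts corresponded to 0.0942 to 0.118 CPM (counts scaled to the size of the library) and covers counting error only. *SAPCD2* itself had 83.5 and 82.2 CPM in the control libraries and 35.4 and 52.5 CPM in the sh-SAPCD2 libraries (log2 fold change −0.91, standard error (SE) 0.193, adjusted p = 0.0206), which was 42.6% of control in replicate 1 and 63.3% in replicate 2. Without the filter on low counts, this adjusted p was 0.0749. All 10 markers of adrenergic neuroblastoma cells were detected in every library, with a summed level of 5158 to 5253 CPM in the control group and 3916 to 4505 CPM in the sh-SAPCD2 group, and 5 of them were lower in the test. Summed levels of leukocyte markers were 9.01 to 13 CPM, of endothelial markers 0.254 to 1.03 CPM and of epithelial markers 3.60 to 5.74 CPM. The leukocyte sum came mostly from *PTPRC*, with 268 and 246 counts in the control libraries and 313 and 334 in the sh-SAPCD2 libraries. *EPCAM* gave most of the epithelial sum, with 99 and 126 counts in the control libraries and 86 and 116 in the sh-SAPCD2 libraries. Neither gene passed the test, and *CD3E*, *LYZ* and *CDH1* had no count. *CD68*, a leukocyte marker, had 1 and 2 counts in the control libraries and 11 and 12 in the sh-SAPCD2 libraries, and *VWF*, an endothelial marker, had 2 in each control library against 14 and 28. Both were higher in the test (adjusted p = 0.0372 and 0.0171). Mesenchymal and fibroblast markers summed to 331 to 372 CPM, mostly from *LUM* and *TWIST1*, and *PRRX1* had no count. Mitochondrial genes took 7.28% to 10.1% of counts. Whether any of this moved the genes below was not tested.

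In SAPCD2-knockdown cells, 8 of the 10 genes were lower and 1 was higher at an adjusted p of 0.05 (quasi-likelihood test of edgeR, with p-values adjusted by Benjamini-Hochberg over 18779 tested genes). Among all tested genes, 12.5% were lower and 12.4% were higher. The median log2 fold change of the 10 genes was −0.71, against 0.02 for all tested genes. The lower genes were *TPX2*, the 4 genes of the passenger complex, *PLK1*, *BORA* and *HUWE1*. The higher gene was *FBXW7*, and *AURKA* was the gene that did not pass the test. *AURKB* alone passed the further threshold of an absolute log2 fold change of 1, which 5.15% of tested genes passed as lower and 4.69% as higher genes. In these bulk libraries, fewer cells in mitosis and less RNA per cell cannot be told apart. Levels in the control group did not overlap with those in the sh-SAPCD2 group for any of the 10 genes, as was so for 67% of tested genes.

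**Figure D1:**
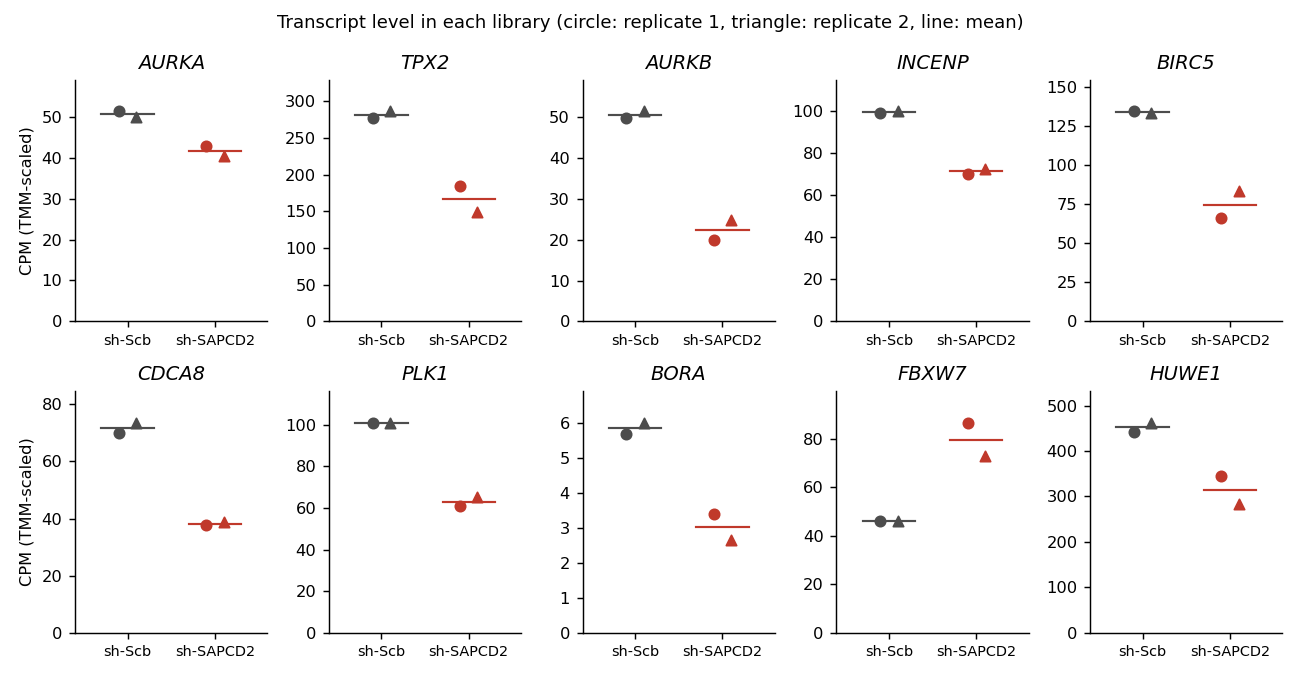
TMM-scaled CPM of the 10 genes in each library on linear axes that start at zero and differ between genes, with sh-Scb in grey, sh-SAPCD2 in red, circles and triangles for replicates 1 and 2, and a line at the mean of 2. *FBXW7* is the gene with higher levels in the sh-SAPCD2 libraries, and *AURKA* shows the smallest distance between the groups relative to its control level (82.5% of control).

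*AURKA* (ENSG00000087586, hg38, minus strand of chromosome 20 from 56369389 to 56392337) encodes Aurora A, the centrosomal and spindle kinase. It had 51.3 and 49.8 CPM in the control libraries and 42.9 and 40.5 CPM in the sh-SAPCD2 libraries. Its level in the knockdown group was 82.5% of control, with a log2 fold change of −0.28 (SE 0.115, 95% confidence interval −0.56 to 0.00, adjusted p = 0.129). Both knockdown libraries lay below both control libraries, but the adjusted p did not reach the threshold. Without the sh-SAPCD2 replicate 1 the gene did pass (log2 fold change −0.33, adjusted p = 0.020), in a fit whose spread comes from the control pair alone. The control libraries differed less from each other (chi-square per degree of freedom 4.47 over genes) than the sh-SAPCD2 libraries did (38.6), and the same holds for each fit below that leaves out a sh-SAPCD2 library. *TPX2* (ENSG00000088325, plus strand of chromosome 20 from 31739271 to 31801805) fell from 277 and 286 CPM to 185 and 149 CPM. Its log2 fold change was −0.75 (SE 0.128, adjusted p = 0.0112), and it kept 65.7% and 53.1% of the control level in the knockdown libraries.

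The difference between the kinase and its activator could be seen within each library. The ratio of *TPX2* to *AURKA*, both as CPM per kb of annotated exon, was 4.39 and 4.66 in the control libraries and 3.50 and 2.998 in the sh-SAPCD2 libraries. With 2 libraries in each group the smallest p of an exact permutation test is 0.333, so such ratios are given as values with no test. Processed pseudogenes carry the symbol of *AURKA*. *AURKAP1* had 4 to 9 counts in each library and *AURKAP2* had none, against 1087 to 1417 counts of *AURKA*.

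Genes of the passenger complex were all lower, and *AURKB* had the largest fall. *AURKB* (ENSG00000178999, minus strand of chromosome 17 from 8204733 to 8210600) encodes Aurora B, the kinase that corrects faulty attachments of chromosomes to microtubules. It had 49.7 and 51.4 CPM in the control libraries and 19.9 and 24.9 CPM in the sh-SAPCD2 libraries. The log2 fold change was −1.17 (SE 0.151, adjusted p = 0.00556), and the knockdown group kept 44.3% of the control level. *CDCA8* (ENSG00000134690, plus strand of chromosome 1 from 37692481 to 37709719) fell from 69.9 and 73.6 CPM to 37.6 and 38.8 CPM (log2 fold change −0.91, SE 0.111, adjusted p = 0.00484). Its knockdown libraries differed less from each other than its control libraries did.

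*BIRC5* (ENSG00000089685, plus strand of chromosome 17 from 78214186 to 78225636) encodes survivin, which also belongs to the family of inhibitors of apoptosis. It had 134 and 133 CPM in the control group and 66.1 and 83.4 CPM in the sh-SAPCD2 group, a log2 fold change of −0.84 (SE 0.137, adjusted p = 0.00996). *INCENP* (ENSG00000149503, plus strand of chromosome 11 from 62123998 to 62153169) had the smallest fall of the complex, from 99.1 and 100.1 CPM to 70.4 and 72.4 CPM. Its log2 fold change was −0.48 (SE 0.101, adjusted p = 0.0203). Relative to *AURKB* and per kb of annotated exon, *INCENP* stood at 1.00 and 0.980 in the control libraries and at 1.78 and 1.46 in the sh-SAPCD2 libraries. The corresponding ratio of *BIRC5* to *AURKB* was 1.59 and 1.52 with sh-Scb and 1.95 and 1.97 with sh-SAPCD2. *CDCA8* to *AURKB* gave 1.31 and 1.33 with sh-Scb and 1.76 and 1.45 with sh-SAPCD2. The transcript of the kinase therefore stood lower against each of its 3 partners in both knockdown libraries.

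*PLK1* and *BORA* were both lower. *PLK1* (ENSG00000166851, plus strand of chromosome 16 from 23677656 to 23690367) encodes the Polo-like kinase of mitotic entry, centrosome maturation and cytokinesis. It had 101 CPM in each control library and 60.8 and 65.4 CPM in the sh-SAPCD2 libraries, a log2 fold change of −0.68 (SE 0.105, adjusted p = 0.00861). *BORA* (ENSG00000136122, plus strand of chromosome 13 from 72727749 to 72756198) was the least abundant of the 10, with 157 and 165 counts in the control libraries and 86 and 83 counts in the sh-SAPCD2 libraries. These equal 5.68 and 5.997 CPM against 3.40 and 2.64 CPM, with a log2 fold change of −0.95 and the widest standard error of the 10 genes, 0.229 (adjusted p = 0.0298). *BORA* shares 37% of its annotated exonic bases with *DIS3* on the opposite strand, and the strandedness of the counting is not given in the sources used here, so reads of the overlap cannot be told apart. *DIS3* itself had 46.4 and 49.6 CPM in the control group and 65.4 and 56.2 CPM in the sh-SAPCD2 group (log2 fold change 0.34, adjusted p = 0.103). The genes overlapping *PLK1*, which are *ERN2* and ENSG00000261266, had at most 7 counts in a library.

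The ligase genes moved in opposite directions. *FBXW7* (ENSG00000109670, minus strand of chromosome 4 from 152320544 to 152536092) had 46.1 and 46.3 CPM in the control libraries and rose to 86.7 and 72.7 CPM in the sh-SAPCD2 libraries. Its log2 fold change was 0.79 (SE 0.128, 95% confidence interval 0.48 to 1.10, adjusted p = 0.00997), or 173% of control. *HUWE1* (ENSG00000086758, minus strand of chromosome X from 53532096 to 53686752) fell from 442 and 462 CPM to 346 and 284 CPM, a log2 fold change of −0.52 (SE 0.123, adjusted p = 0.0279). Both genes were further from zero change in 1 of the knockdown libraries than in the other, *FBXW7* in the first (188% against 158% of control) and *HUWE1* in the second (62.7% against 76.5%). *MYCN*, the transcript of the protein they act on, had 3235 and 3178 CPM in the control group and 5904 and 7091 CPM in the sh-SAPCD2 group. Its log2 fold change was 1.02 (SE 0.111, adjusted p = 0.00378). *MYCNOS*, the antisense gene that shares 3.56% of the exonic bases of *MYCN*, had 88.1 and 90.6 CPM against 136 and 202 CPM.

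**Figure D2:**
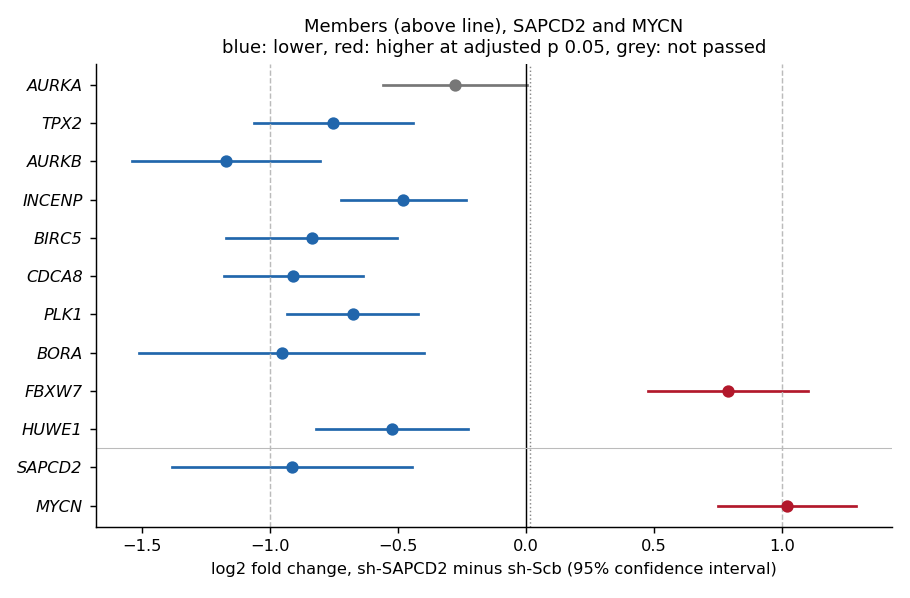
Log2 fold changes of the 10 genes, and of *SAPCD2* and *MYCN* under the grey line, with 95% confidence intervals from the fit over all genes (2 libraries per group), dashed lines at −1 and 1 and a dotted line at the median of all tested genes. The interval of *AURKA* reaches zero, and those of *FBXW7* and *MYCN* lie above it.

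Leaving out a library kept the direction of every one of the 10 genes and changed the calls of 7. Without the sh-Scb replicate 1, where the spread rests on the sh-SAPCD2 libraries alone and the lone control library is assumed to vary like them, 4 genes were lower, and the adjusted p was 0.283 for *INCENP*, 0.0982 for *PLK1*, 0.0761 for *BORA*, 0.0655 for *FBXW7* and 0.170 for *HUWE1*. Without the sh-Scb replicate 2, 3 genes were lower (*AURKB*, *BIRC5* and *CDCA8*), with an adjusted p of 0.0558 for *TPX2*, 0.305 for *INCENP*, 0.0941 for *PLK1*, 0.111 for *BORA*, 0.0626 for *FBXW7* and 0.249 for *HUWE1*. With no filter on low counts, which raised the number of tested genes to 34935, *INCENP*, *BORA* and *HUWE1* had an adjusted p of 0.0503, 0.0743 and 0.0806.

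Levels of different genes were compared per length, as CPM per kb of annotated exon. In the control group *TPX2* had the highest level, 78.1 ± 1.78 CPM per kb (SD, n = 2), and *BORA* the lowest, 1.83 ± 0.0694 CPM per kb (SD, n = 2). Between them the order was *BIRC5* (35.1 CPM per kb), *CDCA8* (29.8), *HUWE1* (25.4), *AURKB* (22.6), *INCENP* (22.4), *PLK1* (21.2), *AURKA* (17.3) and *FBXW7* (4.09). *AURKB* and *INCENP* overlapped in this order, while the other neighbors were separated. In the sh-SAPCD2 group *AURKB* moved from the fifth to the eighth place, with 8.88 and 11.1 CPM per kb, and *AURKA* from the eighth to the sixth, with 14.7 and 13.8 CPM per kb. The neighbors from *BIRC5* through *HUWE1* and *INCENP* to *CDCA8* overlapped there. The ratio of *AURKA* to *AURKB* was 0.789 and 0.742 in the control libraries and 1.65 and 1.24 in the sh-SAPCD2 libraries. *FBXW7* relative to *AURKA* was 0.233 and 0.241 with sh-Scb and 0.523 and 0.466 with sh-SAPCD2. The order depends on the length taken, since the exons of *PLK1* and of *AURKB* together are longer than their canonical transcripts (4760 against 2160 bases and 2241 against 1243 bases). With the length of the canonical transcript, *PLK1* took the third place in the control group (46.7 CPM per kb) and *AURKB* the fourth (40.7 CPM per kb). On that scale *AURKA* (21.1 and 19.9 CPM per kb) and *AURKB* (16.02 and 20.03 CPM per kb) overlapped in the sh-SAPCD2 group.

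**Figure D3:**
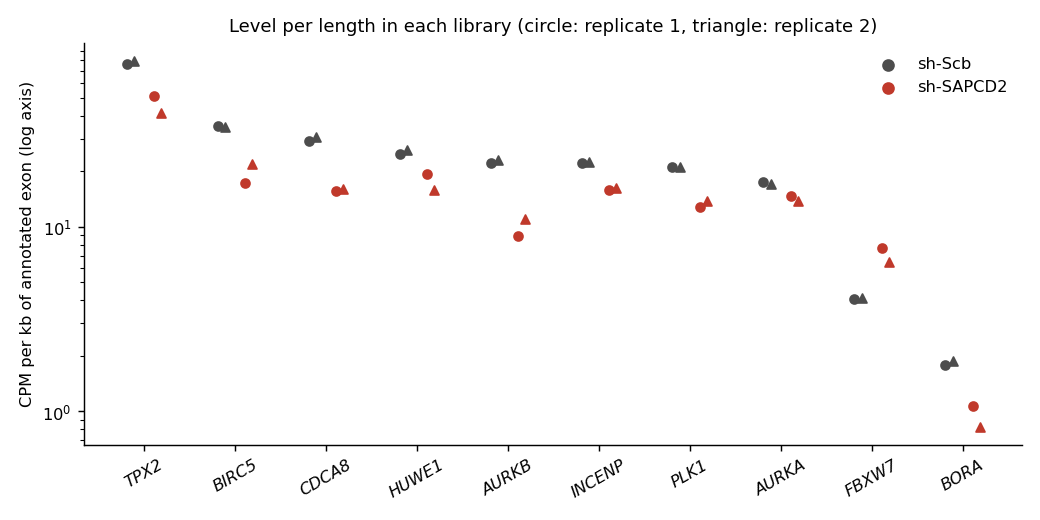
CPM per kb of annotated exon of the 10 genes in each library on a log axis, ordered by the control mean, with sh-Scb in grey, sh-SAPCD2 in red, and circles and triangles for replicates 1 and 2. *TPX2* is highest in all 4 libraries, *BORA* is lowest, and *AURKB* falls below *AURKA* in the sh-SAPCD2 libraries.

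Promoters were examined because most of the mitotic genes moved in the same direction. Genes expressed late in the cell cycle are known to carry CHR elements, bound by MuvB complexes, next to CCAAT boxes, bound by NF-Y. RefSeq promoter windows (GRCh38.p14, 250 bases before to 50 after the gene start) were matched by symbol for 7 of the 10 genes, not for *AURKA*, *TPX2* and *BIRC5*. A CHR element (TTTGAA or TTCGAA, either strand) was found in *INCENP*, *CDCA8*, *PLK1* and *BORA*, and in 16.6% of all 27305 windows. The CCAAT box (CCAAT, either strand) was found in these 4 genes, in *AURKB* and in *HUWE1*, and in 35.7% of all windows. Both motifs stood together in 4 of the 7 windows and in 6.58% of all windows. Over the 11925 windows of tested genes, a CHR element was in 11.4%, the CCAAT box in 36.4% and both in 4.82%. None of the 7 windows held an E2F motif (TTTCCCGC, TTTCGCGC, TTTGGCGC or TTTGCCGC, either strand). It was found in 3.33% of all windows and in 5.13% of the windows of tested genes. At shares this small, 7 windows are too few to show a lack of the motif. An E-box (CACGTG, found in 7.43% of all windows) was present in *PLK1* at position −198 from the RefSeq start. The first base of the CHR element lay at position −10 in *INCENP*, −23 in *CDCA8* and −29 in *PLK1*, and at −177 and −124 in *BORA*. For each of the 7 genes but *FBXW7*, the RefSeq start lies inside the GENCODE gene, whose first base is further upstream. The windows of *PLK1* and *AURKB* do not reach that base, so the sequence around it was not searched. For *AURKB* the window was chr17:8210176-8210475 (minus strand) and the first base is 8210600. The stretches below run from 130 bases before the start to 20 bases after it, written along the gene's strand, and are shown for the 3 lower genes with a CHR element close to the start and for *FBXW7*, the higher gene, whose window held none of the motifs. Capitals mark CHR elements and CCAAT boxes (ATTGG where the box is on the other strand), which overlap by a base at TTTGAATTGG in *CDCA8*. They lie at chr11:62123881-62124030 (plus strand, *INCENP*), chr1:37692386-37692535 (plus strand, *CDCA8*), chr16:23678759-23678908 (plus strand, *PLK1*) and chr4:152536073-152536222 (minus strand, *FBXW7*).
INCENP: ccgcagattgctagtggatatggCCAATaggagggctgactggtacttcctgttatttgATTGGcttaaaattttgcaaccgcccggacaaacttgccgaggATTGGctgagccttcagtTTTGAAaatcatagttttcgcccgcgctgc
CDCA8: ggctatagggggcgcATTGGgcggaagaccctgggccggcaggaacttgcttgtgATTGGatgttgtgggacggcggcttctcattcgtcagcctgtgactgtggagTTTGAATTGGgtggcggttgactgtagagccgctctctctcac
PLK1: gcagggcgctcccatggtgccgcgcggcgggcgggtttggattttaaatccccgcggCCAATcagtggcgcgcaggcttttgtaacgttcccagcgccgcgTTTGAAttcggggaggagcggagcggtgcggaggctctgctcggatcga
FBXW7: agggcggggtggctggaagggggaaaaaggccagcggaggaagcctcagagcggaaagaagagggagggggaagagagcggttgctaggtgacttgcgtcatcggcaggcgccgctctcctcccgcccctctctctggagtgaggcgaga

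These matches are a description of the letters in the windows and were not tested against the fold changes.

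Among 63 related genes in lists compiled from general knowledge, 61 were tested, 27 were lower and 7 were higher, with a median log2 fold change of −0.39. Over all tested genes 12.5% were lower and 12.4% higher, so the number of higher related genes was at the share of all genes. Of 12 genes that recruit the passenger complex or are its partners and substrates, 11 were tested, and 11 were lower (none was higher at an unadjusted p of 0.05 or in DESeq2), with a median log2 fold change of −0.86. *VRK1*, a kinase of chromatin proteins, fell from 45.5 and 46.1 CPM to 21.0 and 19.8 CPM (log2 fold change −1.17, SE 0.124, adjusted p = 0.00359). *KIF20A*, the kinesin that moves the complex to the central spindle, fell by 1.25 on the log2 scale (SE 0.156, adjusted p = 0.00514). *KIF2C*, a microtubule depolymerase controlled by Aurora B, and *RACGAP1*, a component of the central spindle, fell by 0.85 and 0.86 on the log2 scale (adjusted p = 0.00457 and 0.00502). Without the sh-Scb replicate 2, 7 of the 11 were lower, 11 at an unadjusted p of 0.05. *AURKC*, the germline paralog of *AURKB*, had 4 counts in the sh-SAPCD2 replicate 2 and none in the other libraries and was not tested.

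Of the partners of Aurora A, 4 of 10 were lower and 1 was higher, with a median log2 fold change of −0.20. All tested genes gave 12.5% lower and 12.4% higher, so 1 higher gene lies near that share. *HMMR*, a spindle protein, fell from 122 and 119 CPM to 41.4 and 30.03 CPM, a log2 fold change of −1.76 (SE 0.169, adjusted p = 0.00318). *CDK5RAP2* and *CEP192*, both centrosome proteins, fell by 1.05 and 0.79 on the log2 scale (adjusted p = 0.00581 and 0.0190), and *TACC3*, a spindle substrate of Aurora A, fell by 0.56 (adjusted p = 0.0154). The higher gene was *NEDD9*, a scaffold that activates Aurora A, named after its values were seen, with 4.92 and 4.98 CPM in the control group and 10.3 and 8.47 CPM in the sh-SAPCD2 group (log2 fold change 0.92, SE 0.194, adjusted p = 0.0203). Without either sh-Scb library, 2 genes of this list were lower and *NEDD9* did not pass (highest adjusted p = 0.0825 over the 13 alternatives). *CEP192* and *TACC3* lost their calls there too, with an adjusted p of up to 0.0873 and 0.202 over the 13 alternatives.

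The Polo family divided. *PLK4*, the kinase of centriole duplication, fell from 64.3 and 62.1 CPM to 30.4 and 22.99 CPM (log2 fold change −1.24, SE 0.163, adjusted p = 0.00573), as *PLK1* did. *PLK2*, a stress-responsive member, rose from 7.02 and 5.60 CPM to 24.02 and 20.6 CPM, a log2 fold change of 1.82 (SE 0.186, adjusted p = 0.0033). *PLK3*, also stress-responsive, rose from 4.53 and 4.11 CPM to 9.36 and 11.3 CPM (log2 fold change 1.26, SE 0.196, adjusted p = 0.00866). *PLK5* had 9 counts in the sh-SAPCD2 replicate 1 and none in the other libraries and was not tested. These 3 calls held under each of the 13 alternatives, with an adjusted p of at most 0.0326. Of the 12 tested Polo kinases and PLK1 partners, 6 were lower and 2 were higher, with a median log2 fold change of −0.77. Shares over all tested genes were 12.5% lower and 12.4% higher, and the number of higher genes in the list was near that share. *CENPU*, which docks PLK1 at the kinetochore, and *PRC1*, the bundler of the central spindle, fell by 1.25 and 0.84 on the log2 scale (adjusted p = 0.00519 and 0.00689). *PKMYT1*, an inhibitory kinase of CDK1 that was named after its values were seen, had an adjusted p of 0.0519 at a log2 fold change of −1.002 and passed under 12 of 13 alternatives. Without the sh-SAPCD2 replicate 1, more genes were called lower in this list and also over all tested genes. The median log2 fold change of the list was then −0.83.

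**Figure D4:**
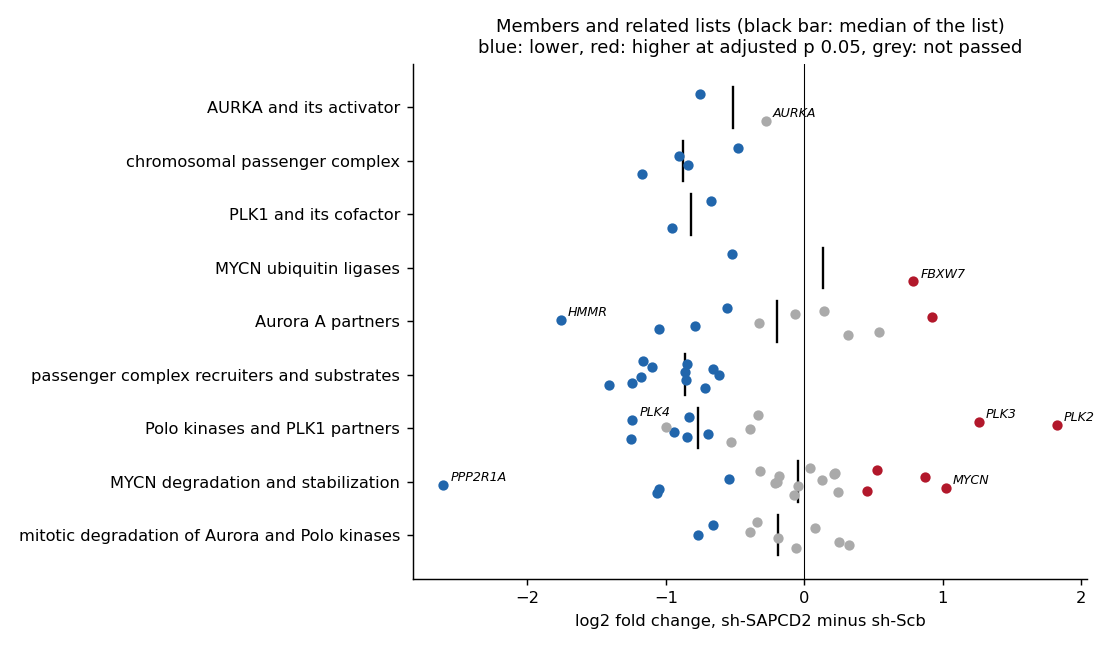
Log2 fold changes of the 10 genes (4 upper rows) and of the tested related genes (5 lower rows), 1 point per gene, with a black bar at the median of each row. The row of passenger complex recruiters and substrates lies wholly below zero, while *PLK2*, *PLK3*, *FBXW7* and *MYCN* lie on the right.

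In the list of MYCN and of genes that degrade or stabilize it, 4 of 19 were lower and 4 were higher, with a median log2 fold change of −0.05, where 12.5% of all tested genes were lower and 12.4% higher. Counts this small lie near those shares and are not a result about the list. *PPP2R1A*, the scaffold subunit of the phosphatase PP2A, had the largest change of the list, from 159 and 153 CPM to 22.2 and 28.9 CPM (log2 fold change −2.61, SE 0.155, adjusted p = 0.00201). *GSK3B*, the kinase that marks MYC proteins for FBXW7, fell from 137 and 136 CPM to 74.7 and 57.5 CPM (log2 fold change −1.05, SE 0.146, adjusted p = 0.00646). *CIP2A*, an inhibitor of PP2A, fell by 1.06 on the log2 scale (adjusted p = 0.00862), and the other lower gene was *SKP2*. Besides *MYCN*, the higher genes were *USP36*, *STUB1* and *FBXW11*, which with *SKP2* were named after their values were seen, with log2 fold changes of 0.52, 0.87 and 0.45 against −0.55 for *SKP2*. The core subunits that form a ligase with FBXW7 did not pass the test, with log2 fold changes of 0.24 for *CUL1*, 0.13 for *SKP1* and −0.20 for *RBX1* (adjusted p = 0.157, 0.389 and 0.467), and that of *RBX1* was 0.03 without the sh-SAPCD2 replicate 1. *CUL1* and *SKP1* passed as higher with the GC and length correction, whether or not the replicate block was added. Without the sh-SAPCD2 replicate 2, they passed as higher too and *RBX1* as lower (log2 fold change −0.47, adjusted p = 0.00947). Without the sh-Scb replicate 1, and likewise without the sh-Scb replicate 2, 3 genes of the list were lower and 2 were higher, and *SKP2*, *USP36* and *FBXW11* did not pass (adjusted p up to 0.197, 0.271 and 0.361 over the 13 alternatives). With either sh-SAPCD2 library left out, more genes of the list were higher, as was so over all tested genes. The median log2 fold change of the list was then 0.03 without replicate 1 and 0.02 without replicate 2.

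Genes of the ubiquitin machinery that removes Aurora and Polo kinases at the end of mitosis gave 2 of 9 lower (3 at an unadjusted p of 0.05 and 3 in DESeq2, and none was higher by either) and a median log2 fold change of −0.19, where 12.5% of all tested genes were lower. This count too lies near the share of all genes. The lower genes were *UBE2C*, the E2 enzyme of the anaphase-promoting complex, and *CDC20*, an activator of that complex. Their log2 fold changes were −0.66 and −0.77 (SE 0.104 and 0.156, adjusted p = 0.00887 and 0.0182). *CDC27* and *UBE2S* did not pass, with log2 fold changes of −0.39 and −0.34 (adjusted p = 0.0527 and 0.241). With the GC and length correction, with or without the replicate block, both passed as lower. *CDC27* also passed as lower with DESeq2, library totals, the filter at a mean of 1 CPM and protein-coding genes only. It did not pass with the size factors of DESeq2, no filter or the replicate block alone. In the fits below that leave out a sh-SAPCD2 library or correct for GC content and length, more of all tested genes were called too. Without either sh-Scb library the count was 0 lower (2 at an unadjusted p of 0.05), with an adjusted p of up to 0.108 for *UBE2C* and 0.0619 for *CDC20* over the 13 alternatives, and without the sh-SAPCD2 replicate 1 it was 4 lower and 3 higher. It was 5 lower and 0 higher (0 higher also at an unadjusted p of 0.05) without the sh-SAPCD2 replicate 2, and likewise with the GC and length correction in edgeR.

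The genes with the most similar profiles were sought for *AURKA*, *PLK1* and *FBXW7* among 15672 genes with at least 1 CPM, as the smallest root mean square difference of log2 CPM centered on each gene's mean over the 4 libraries. For *AURKA* these were *ATPSCKMT*, *ADD1* and *FAHD2A* (0.00409, 0.00536 and 0.0111), with log2 fold changes of −0.27 each and adjusted p from 0.0873 to 0.230. For *PLK1* they were *UBE2C*, *PABIR3* and *KLF13* (0.00795, 0.0100 and 0.0164), and for *FBXW7* they were *TACC1*, *SLFN5* and *HIPK3* (0.00598, 0.00619 and 0.00983). With 4 libraries and this many genes, such closeness is a description of these libraries.

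The study designed 2 shRNAs against *SAPCD2*, whose guide strands are shown with the seed (bases 2 to 8) in capitals, because a guide can also lower transcripts that it matches over a short stretch.
sh-SAPCD2 #1: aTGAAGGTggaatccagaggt
sh-SAPCD2 #2: aTCATCTCcaaaccctgcagc

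In canonical 3′ UTRs (GENCODE 44), the site of the first seed (ACCTTCA) was found in *BIRC5* among the 10 genes and in 11.3% of 19571 UTRs. The site of the second seed (GAGATGA) was found in *FBXW7*, which rose, and *HUWE1*, which fell, and in 13.2% of UTRs. Among the related genes, the first seed site was in *RCC2*, which was lower. It was also in *ANAPC10*, *CDC27*, *PPP6C* and *SKP1*, which did not pass the test. The second seed site was in *FBXW11* and *USP36*, which were higher. It was also in *CDC27*, *FZR1*, *PAK1*, *SKP1* (3 sites) and *TRIM32*, which did not pass the test. The 7 bases pairing with bases 5 to 11 of the first guide (TCCACCT), a site chosen with earlier results of these data known, were in none of the 10 genes and in 15.8% of UTRs. In the related lists, 9 of the 63 genes held such sites. Of these *PPP2R1A* (2 sites), *GSK3B* and *KIF4A* were lower, *MYCN* was higher, and *RBX1*, *SKP1*, *TRIM32*, *UBE2S* and *USP28* did not pass the test. For the second guide the same bases (TTGGAGA) were in *CDCA8* and *BORA* among the 10 genes, and in 16.6% of UTRs. In the related lists they were in *MYCN*, which was higher, and in *SKP1* (2 sites), *FZR1* and *TRIM32*, which did not pass the test. The part of these matches in the fold changes was not tested.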

How the data were processed

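SK-N-BE(2) cells with sh-Scb or sh-SAPCD2 were profiled by RNA-seq with 2 libraries per group, grouped by their labels. Paired-end reads of 150 bp were mapped by the authors with HISAT2 2.2.0 (hg38) and passed to StringTie for abundance, and the authors deposited whole-number counts per Ensembl gene, not scaled for depth. The counting tool, Ensembl release and strandedness are not given in the sources used here. Libraries held 25347900 to 31850997 counts.

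Counts were scaled by TMM, filtered by filterByExpr (minimum count 10, minimum total 15) and tested over 18779 genes in edgeR 4.0.16 by its quasi-likelihood test (R 4.3.3, two-sided, Benjamini-Hochberg adjustment). A gene passed at an adjusted p under 0.05. Standard errors are the log2 fold change divided by the square root of F. CPM are TMM-scaled. Positions, exonic lengths and UTRs came from GENCODE 44 and promoters from RefSeq. All 10 genes and 63 related genes were matched by GENCODE symbol.

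The genes and lists were chosen with earlier results of these data known. Named genes are the 10, *SAPCD2*, *MYCN*, the Polo and Aurora paralogs, at most 4 genes of each list with the smallest p, overlapping genes and pseudogenes, and the 3 genes closest in profile to *AURKA*, *PLK1* and *FBXW7*. The others were named after their values were seen. Alternatives were DESeq2 1.42.0, its size factors, library totals, no filter, a filter at a mean of 1 CPM, a block for the replicate number, a loess correction for GC content and length (span 0.3), both together, protein-coding genes, and each library left out. The canonical transcript length was added after the data were seen. Scripts were tested on simulated data.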

Additional observations from a re-analysis of the deposited data

How the results depend on the processing

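Under the 13 alternatives, none of the 10 genes changed direction. With DESeq2, its size factors, library totals, a filter at a mean of 1 CPM, the replicate block, the correction for GC content and length, both of these together and protein-coding genes only, 8 genes were lower and 1 was higher in each case. The replicate block changed no call among the 10 genes, and same-numbered libraries did not deviate together (correlation of their deviations −0.0188), so the numbers were not taken as pairs. Without the filter on low counts, 5 of the 10 genes and 1180 of all genes were lower, and 4 related genes and 1081 of all genes were higher, with more genes tested (34935). The correction for GC content and length gave 3815 higher genes in all, and 3759 with the replicate block, the cause of which was not tested. When a single library was left out, the number of the 10 genes that were lower ranged from 3 to 9, that were higher from 0 to 1 (1 at an unadjusted p of 0.05 each time), and that were lower past a log2 fold change of 1 from 1 to 2. The related genes gave 18 to 36 lower and 4 to 14 higher, and all genes 1146 to 4014 lower and 1176 to 4396 higher, the lowest without a sh-Scb library. *AURKA* had log2 fold changes from −0.33 to −0.19 and an adjusted p from 0.020 to 0.659, and *AURKB* from −1.34 to −1.03 with an adjusted p of at most 0.0259.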
